A study of Homo sapiens with 3 samples.

Results

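The genes described here are a set listed as genes of the azurophil granule, the first granule that myeloid precursors make. Whether each of their proteins lies in that granule was not examined. The genes were taken as every probe set whose platform gene symbol was exactly ELANE, AZU1, CTSG, PRTN3, MPO, LYZ, SERPINB10, RNASE2, RNASE3 or SRGN. Of these 10 genes, 9 had a probe set under that symbol. They had 13 probe sets together, out of 54613 probe sets that are not controls, and the array's named probe sets gave 19775 genes. The expression of RNASE3 was not analysed here. Biotin-labelled total RNA was hybridised to 3 arrays of 1 colour, with 1 culture of THP-1 for each condition. THP-1 is a long-used cell line from a human monocytic leukemia. The 3 conditions were untreated, undifferentiated cells and 2 differentiated cultures, called PMA 3 days and PMA 8 days after their labels. PMA (phorbol myristate acetate) activates protein kinase C and turns these cells into adherent, macrophage-like cells. The PMA 3 days culture was in 200 nM PMA for 24 hours and then 3 days in PMA-free medium, and the PMA 8 days culture was in 200 nM PMA for 72 hours and then 5 days in PMA-free medium. All cells were grown in 10% serum, and medium with 2% serum was given 16 hours before RNA isolation, by a protocol that does not say whether the undifferentiated cells received it. Time in PMA, time since PMA and time in culture therefore cannot be told apart between the PMA cultures.

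Azurophil granules, also called primary granules, form at the promyelocyte stage and are kept by neutrophils and, in smaller number, by monocytes. Their matrix holds serine proteases of the chymotrypsin fold, myeloperoxidase, lysozyme and cationic ribonucleases, packed on the proteoglycan serglycin. Transcripts of the serine proteases and of myeloperoxidase are made mainly in precursors and are shut off as the cells mature. A mature cell then carries these proteins with little of their messenger RNA.

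Each value below comes from 1 array. No test between conditions and no error over cultures could be computed, and the number of arrays limits the precision. Signals are in the array's linear units, after each array had been scaled to a trimmed mean of 1000. Signals at or below 149.8, the median over all 3 arrays pooled, were raised to that floor before a log2 ratio was taken. A ratio with 1 array at the floor is a bound and is written "at least". Lower or higher means a difference of at least 2-fold. The only spread that could be measured was that between probe sets of the same gene. Its pooled SD over 5180 genes was 0.43 log2 units for the ratio of PMA 3 days to undifferentiated, 0.44 for that of PMA 8 days to undifferentiated and 0.27 for that between the PMA cultures. It leaves out differences between cultures. In such bulk RNA, fewer cells with a transcript and less of it per cell cannot be told apart. Signals of different genes come from different probes and were not compared with each other.

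The labels were set against cell type markers. Of 6 myeloid markers with a probe set, 4 (ITGAM, CSF1R, CD4 and CD14) were above the floor in undifferentiated cells, and 5 were on both PMA arrays. SPI1, the myeloid transcription factor PU.1, had a signal of 25.0 in undifferentiated cells, below the floor, and FCGR1A was below it on all 3 arrays. Of 5 mature neutrophil markers, CEACAM8 and CD177 were below the floor on every array. CXCR2 (3096, then 344 and 593) and CSF3R (1836, then 678 and 552) were above it throughout and lower after PMA with the granule genes, and FCGR3B was above it after PMA only (282 and 270). The summed signal of these 5 went from 5015 to 1343 and 1451. Of 7 markers of T, B and NK cells, CD3D, CD3E and MS4A1 were below the floor on every array, CD79A and NKG7 were above it on every array, and NCAM1 and CD2 were near it. Their summed signal lay between 1071 and 1594. Of 5 markers of eosinophils, basophils and mast cells, 0 were above the floor in undifferentiated cells, 1 (HDC, at 154) at PMA 3 days and 0 at PMA 8 days, and their summed signal lay between 327 and 565. The summed signal of 6 macrophage markers went from 6656 in undifferentiated cells to 124246 at PMA 3 days and 112613 at PMA 8 days. That of 5 progenitor markers went from 42970, of which MYB gave 32633, to 1105 and 1789, with CD34 below the floor throughout. Of 3 erythroid and platelet markers, PF4 was above the floor after PMA only (409 and 283), and their summed signal lay between 517 and 658. Of 6 epithelial, fibroblast and endothelial markers, KRT18, PECAM1 and COL1A1 were above the floor on every array. COL1A1 went from 464 to 2337 and 1828, and the summed signal of the 6 lay between 20883 and 23479. The progenitor and neutrophil sums fell with the granule genes and the macrophage sum rose. The part of these changes in the results below was not tested.

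At PMA 3 days, 6 of the 9 measured granule genes were lower than in undifferentiated cells (ELANE, AZU1, CTSG, PRTN3, SERPINB10 and RNASE2) and 0 were higher. Over all genes tested, 10.7% were lower and 10.4% higher in this comparison. With the arrays scaled to the poly-A labelling controls instead, 15.7% of all genes were lower and 8.22% higher, and the lower members were the same 6. At PMA 8 days 7 of the 9 were lower, LYZ being the addition, and 0 were higher, against 8.49% lower and 9.83% higher over all genes. SRGN was under 2-fold at both times. MPO was under 2-fold at PMA 8 days and had only a bound at PMA 3 days, so that it was not shown past 2-fold there. The median log2 ratio of the 9 genes was at most -3.78 at both times, beside -0.12 and -0.07 for all genes tested. This middle value was the bound of SERPINB10, so the floor set it and made it equal at both times. It moved to -2.98 and -3.28 with a floor at the 60th percentile, and to -5.36 and -5.28 with a floor of 50 signal units. All 9 were above the floor in undifferentiated cells, 6 of them at PMA 3 days and 7 at PMA 8 days.

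**Figure D1:**
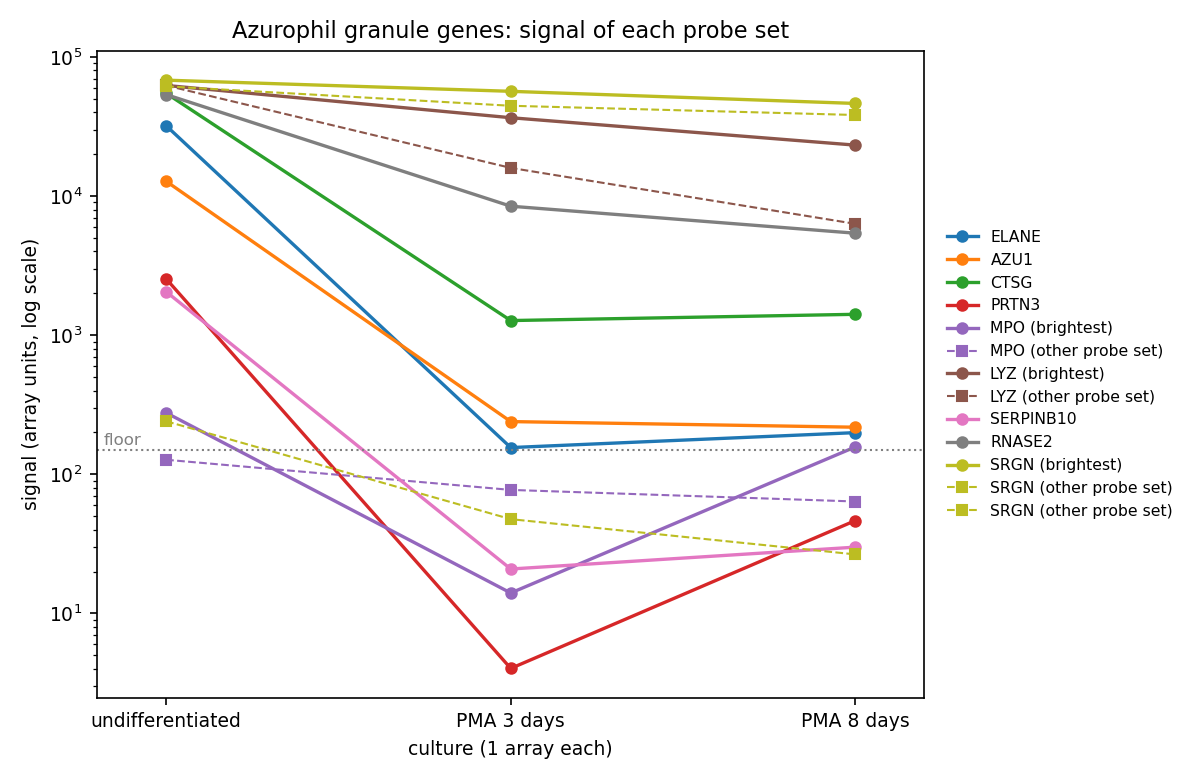
Signal of each of the 13 probe sets of the granule genes on the 3 arrays, on a log axis in array units; solid lines are each gene's brightest probe set, dashed lines its others, and the dotted line is the floor of 149.8. ELANE, AZU1 and CTSG are far lower on the PMA 3 days array than on the undifferentiated one and at a similar level on the PMA 8 days array. PRTN3 and SERPINB10 go below the floor, and LYZ, RNASE2 and SRGN are lower on each later array.

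The largest ratios measured above the floor were those of ELANE, AZU1 and CTSG. ELANE encodes neutrophil elastase, which cuts elastin and bacterial proteins. Its signal was 32064 in undifferentiated cells, 156 at PMA 3 days and 199 at PMA 8 days. Both PMA values were close to the floor and 0.485% and 0.621% of the starting signal. The log2 ratio was -7.69 (206-fold lower) at PMA 3 days and -7.33 (161-fold lower) at PMA 8 days. These were the lowest ratios among the 11370 and 11550 genes above the floor on both arrays of the comparison. CTSG, cathepsin G, a protease with chymotrypsin-like activity, had signals of 54870 in undifferentiated cells, 1274 at PMA 3 days and 1413 at PMA 8 days. Where 3 signals are listed below without a label, they follow this order. Unlike ELANE it stayed well above the floor after PMA, so its ratios of -5.43 (43.1-fold lower) and -5.28 (38.8-fold lower) were measured on both sides. By ratio it was the 8th lowest of 11370 genes at PMA 3 days and the 5th lowest of 11550 at PMA 8 days.

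AZU1 encodes azurocidin, an antimicrobial and heparin-binding protein that is a relative of elastase without protease activity. Its signals were 12788, 239 and 218. The log2 ratio was -5.74 (53.4-fold lower) at PMA 3 days and -5.87 at PMA 8 days, in each case the 3rd lowest of the genes measured on both arrays. PRTN3, proteinase 3, the main target of the autoantibodies of granulomatosis with polyangiitis, had a signal of 2544 in undifferentiated cells and signals of 4.02 and 46.5 at PMA 3 and 8 days, both below the floor. It was at least 17.0-fold lower at either time (log2 ratio at most -4.09). The signals below the floor have no order, so the PMA arrays cannot be ranked for PRTN3.

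AZU1, PRTN3 and ELANE follow each other in this order on the chromosome, and their neighbours were read in the same way. CFD, which encodes the serine protease complement factor D and lies next to ELANE, had signals of 46135, 4781 and 4417, and was 9.65-fold lower at PMA 3 days and 10.4-fold lower at PMA 8 days. PLPPR3, which precedes AZU1, went from 920 to 12.0 and 122, at least 6.14-fold lower at both times. Farther out the ratios were smaller. The log2 ratio at PMA 3 days was -0.87 for PTBP1, a splicing regulator, and -0.54 for MISP on the AZU1 side, and -0.30 for MED16, a Mediator subunit, and 0.00 for R3HDM4 on the ELANE side. A run of 5 adjacent genes was thus lower at PMA 3 days, with genes under 2-fold on either side of it. At PMA 8 days the same 5 genes were past 2-fold. MISP was then below the floor (25.2) and had only a bound, at least 1.58-fold lower from a signal of 237.

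**Figure D2:**
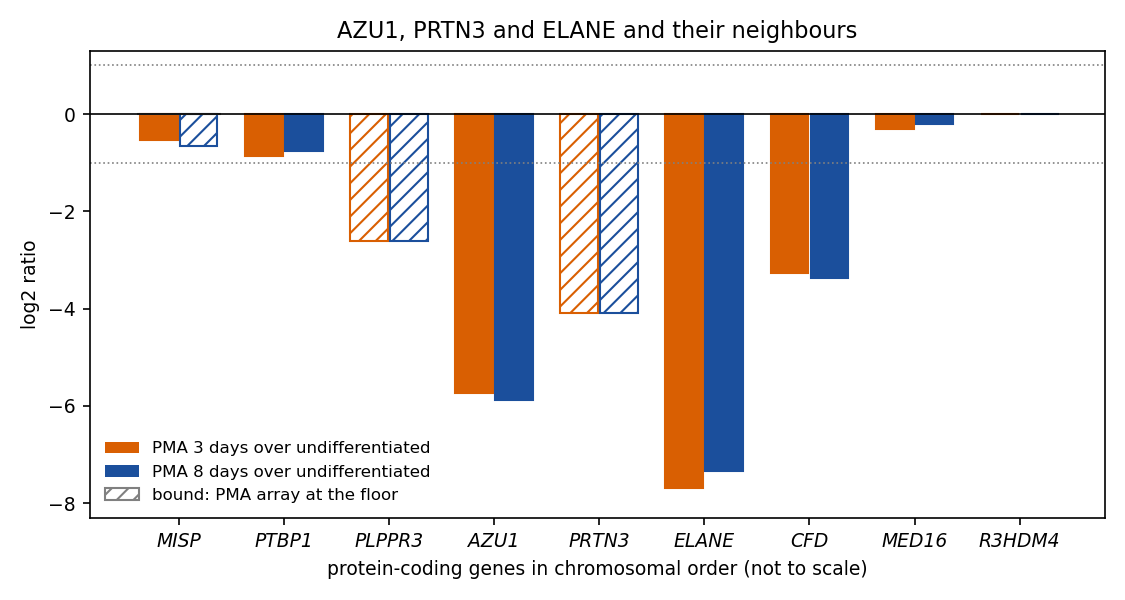
Log2 ratio over undifferentiated cells (vertical axis) of AZU1, PRTN3, ELANE and 3 protein-coding genes on either side, in chromosomal order and not to scale; filled bars are measured on both arrays, hatched bars are bounds with the PMA array at the floor, and dotted lines mark 2-fold. The 5 genes from PLPPR3 to CFD are past -1 at both times and the outer 4 are drawn above -1, of which MISP at PMA 8 days is a bound.

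CTSG lies elsewhere, between the mast cell chymase gene CMA1 and the granzyme genes GZMH and GZMB. CMA1 and GZMH were below the floor on all 3 arrays, and GZMB had signals of 83.1, 165 and 180, just above the floor after PMA. STXBP6, the next gene on that side, was at least 4.30-fold lower at PMA 3 and 8 days, from a signal of 645. Over the 10 members there were 42 different neighbours, up to 3 on either side, of which 39 had a probe set and 31 were above the floor. At PMA 3 days 5 of the 31 were lower and 5 higher, with a median log2 ratio of -0.28. The shares over all genes tested were 10.7% lower and 10.4% higher. At PMA 8 days 4 were lower and 5 higher, with a median of -0.04, beside 8.49% lower and 9.83% higher over all genes. The 5 lower at PMA 3 days were PLPPR3, CFD, STXBP6, MDM2 (beside LYZ, 3.62-fold) and SERPINB8 (beside SERPINB10, 2.54-fold).

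Because these genes were low together after PMA, the 250 bases before the start of the granule genes are shown for the 4 measured members that the RefSeq promoter table (GRCh38.p14) holds. Capitals mark matches, on either strand, to letters that resemble the binding sites of factors of promyelocytes: MYB (AACNG), PU.1 (GAGGAA), C/EBP (TTGCNNAA), RUNX (TGTGGT) and the TATA box (TATAAA). Adjacent or overlapping matches run together in capitals.
AZU1 (chr19:827587-827836, plus strand): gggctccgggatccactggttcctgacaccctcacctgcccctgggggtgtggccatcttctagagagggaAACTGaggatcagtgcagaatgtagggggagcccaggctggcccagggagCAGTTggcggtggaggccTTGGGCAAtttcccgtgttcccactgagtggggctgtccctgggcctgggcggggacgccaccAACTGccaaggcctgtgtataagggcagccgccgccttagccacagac
PRTN3 (chr19:840749-840998, plus strand): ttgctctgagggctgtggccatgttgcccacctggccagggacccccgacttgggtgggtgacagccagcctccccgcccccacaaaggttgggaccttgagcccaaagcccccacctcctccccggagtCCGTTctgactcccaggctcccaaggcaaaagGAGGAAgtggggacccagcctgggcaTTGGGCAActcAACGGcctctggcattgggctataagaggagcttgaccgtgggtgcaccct
CTSG (chr14:24576251-24576500, minus strand): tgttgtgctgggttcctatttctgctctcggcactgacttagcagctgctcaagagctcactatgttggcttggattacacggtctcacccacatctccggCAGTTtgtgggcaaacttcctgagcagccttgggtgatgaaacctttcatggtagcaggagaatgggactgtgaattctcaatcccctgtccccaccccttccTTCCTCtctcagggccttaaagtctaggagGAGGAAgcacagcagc
RNASE2 (chr14:20955237-20955486, plus strand): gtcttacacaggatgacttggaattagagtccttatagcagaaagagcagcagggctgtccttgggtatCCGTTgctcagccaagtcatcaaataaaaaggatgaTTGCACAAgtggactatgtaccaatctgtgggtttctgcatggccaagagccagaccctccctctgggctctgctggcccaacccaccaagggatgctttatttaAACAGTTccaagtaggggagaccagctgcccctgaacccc
The C/EBP letters were in 4 of the 5 members with a window, RNASE3 included, and in 9.05% of 35116 such windows. AZU1 and PRTN3 both carried them as TTGGGCAA, starting 111 and 62 bases before the start. RNASE2 and RNASE3 carried TTGCACAA, 145 and 94 bases before it, within a stretch that their windows share, so that these are not separate cases. The PU.1 letters were in CTSG, at 46 and 16 bases before the start, and in PRTN3 at 88, and in 23.6% of all windows. The short MYB letters were in 5 of 5 but also in 70.6% of all windows. The RUNX and TATAAA letters were in 0 of 5, and in 11.0% and 10.7% of all windows. AZU1 and PRTN3, though adjacent, shared no run longer than 9 bases in these windows, while those of RNASE2 and RNASE3 shared a run of 86, which holds this match. These are matches of letters in the reference sequence, and binding was not measured.

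MPO, myeloperoxidase, makes hypochlorous acid from hydrogen peroxide and chloride and is the classical marker of azurophil granules. It was dim in these cells. Its brighter probe set read 277 in undifferentiated cells, 14.0 at PMA 3 days and 157 at PMA 8 days, and its other probe set read 127, 77.2 and 63.7, below the floor on every array. The log2 ratio of the brighter one was at most -0.89 at PMA 3 days (at least 1.85-fold lower), which does not settle whether it was past 2-fold, and -0.81 at PMA 8 days, under 2-fold. With a floor of 50 signal units the ratio at PMA 3 days was at most -2.47, still a bound. Of the related peroxidases, EPX of eosinophils and PXDN were below the floor on all arrays, and LPO went from 280 to 98.1 and 78.1, at least 1.87-fold lower and so not shown past 2-fold.

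LYZ encodes lysozyme, which cuts the peptidoglycan of bacterial walls and which macrophages also make and secrete. Its probe sets started alike and then parted. The brighter one read 62439 in undifferentiated cells, 36591 at PMA 3 days and 23242 at PMA 8 days. The other read 62400, 15945 and 6316. The log2 ratios were -0.77 and -1.43 for the first, and -1.97 and -3.30 for the second. The gap between them was 1.20 log2 units at PMA 3 days and 1.87 at PMA 8 days, larger than the pooled SD between probe sets of a gene. Both were lower on each later array, and whether LYZ was past 2-fold at PMA 3 days depended on which was read.

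RNASE2 encodes the eosinophil-derived neurotoxin, a secreted antiviral ribonuclease that monocytes also make. Its signals were 53688 in undifferentiated cells, 8458 at PMA 3 days and 5409 at PMA 8 days. It was 6.35-fold lower (log2 ratio -2.67) at PMA 3 days and 9.93-fold lower (-3.31) at PMA 8 days. RNASE2 and RNASE3 are related copies of a gene, and whether this probe set also reads RNASE3 transcripts was not tested. Other ribonucleases were read beside it. Of 4 above the floor (3 of the ribonuclease A superfamily and the unrelated RNASET2), 3 were higher and 0 lower at PMA 3 days, with a median log2 ratio of 1.31, and 1 was higher at PMA 8 days (median 0.84). Over all genes tested, 10.4% were higher at PMA 3 days and 9.83% at PMA 8 days. RNASE1, the pancreatic-type ribonuclease, whose gene lies near RNASE3, went from 758 to 15215, 20.1-fold higher, and was at 5112 at PMA 8 days. RNASE6, an antimicrobial ribonuclease of monocytes, went from 4877 to 14680 and 9375, and ANG, angiogenin, from 285 to 585 and 477. RNASET2 of lysosomes read 57372, 42795 and 34785, lower on each later array but under 2-fold at both times.

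SERPINB10, also called bomapin, is a serpin (serine protease inhibitor) restricted to blood-forming cells. Its signals were 2055 in undifferentiated cells and 20.9 and 29.9 after PMA, so that it was at least 13.7-fold lower at either time. Of 7 other clade B serpins listed for that gene cluster with a probe set, 1 was above the floor. This was SERPINB7, which went from 27.9 to 440 and 417, at least 2.93-fold and 2.79-fold higher. SERPINB8 of the same cluster, listed with the protease inhibitors, was above the floor on all arrays (1962, 771 and 1173), 2.54-fold lower at PMA 3 days and under 2-fold at PMA 8 days. SRGN encodes serglycin, the proteoglycan that binds the granule proteases through its sulfated chains. It kept most of its signal. Its brightest probe set read 68133, 56642 and 46336, which is 83.1% and 68.0% of the starting signal after PMA. Its second read 61515, 44597 and 38281. The log2 ratios of these lay between -0.27 and -0.46 at PMA 3 days and between -0.56 and -0.68 at PMA 8 days. The remaining, dim probe set read 241, 47.6 and 26.5, at least 1.61-fold lower.

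**Figure D3:**
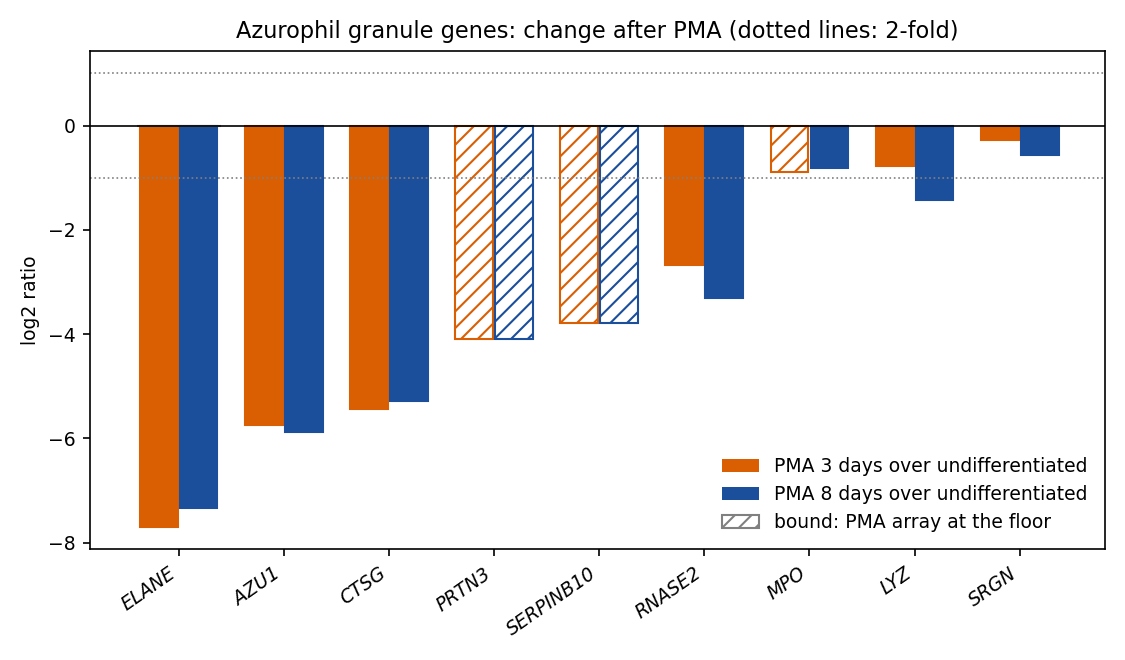
Log2 ratio over undifferentiated cells (vertical axis) of the 9 measured granule genes, each by its brightest probe set; orange bars are PMA 3 days, blue bars PMA 8 days, hatched bars are bounds with the PMA array at the floor, and dotted lines mark 2-fold. ELANE, AZU1 and CTSG lie below -5 at both times, and SRGN stays between 0 and -1.

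Between the PMA cultures, 0 of the 7 granule genes above the floor were past 2-fold, and over all genes tested 0.958% were lower and 1.37% higher at PMA 8 days than at PMA 3 days. The log2 ratio was 0.36 for ELANE, -0.13 for AZU1 and 0.15 for CTSG, of which only the first was larger than the pooled SD between probe sets, in a gene near the floor. It was -0.65 for both RNASE2 and the brighter LYZ probe set, -1.34 for the other LYZ probe set, and -0.29 and -0.22 for the bright SRGN probe sets. The SRGN values were about as large as that SD and as the shift of the poly-A labelling controls between these arrays (-0.29), and with the arrays scaled to the median control signal of each the brightest SRGN probe set had -0.13. ELANE, AZU1 and CTSG thus had similar signals in the PMA cultures, with ELANE and AZU1 near the floor. RNASE2 and LYZ read lower at PMA 8 days, by less than 2-fold except for the second LYZ probe set. As these separate cultures differed in time in PMA and time after it, their values are not a time course.

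Of the other listed azurophil granule proteins, the few that could be read were not lower, nor were the genes that mature or fold the members. Of 12 further azurophil granule proteins listed, 7 had a probe set and 6 were above the floor (CD63, GUSB, MAN2B1, NEU1, ARSA and ARSB). BPI, DEFA1, DEFA3, PRSS57 and CD68 had no probe set listed under their symbol alone and were not read. At each PMA time 2 of these 6 were higher and 0 lower, with median log2 ratios of 0.49 and 0.61. Among all genes tested, 10.4% and 9.83% were higher, and 10.7% and 8.49% lower. The 2 higher members of this list were lysosomal enzymes, the sialidase NEU1 (3220, then 10949 and 8286) and the sulfatase ARSB (1141, then 3723 and 4304). The granule membrane protein CD63 had log2 ratios of 0.52 and 0.55, and GUSB, beta-glucuronidase, the lowest of this list, -0.33 and -0.37. The defensin DEFA4 was below the floor on every array. The list therefore says nothing of BPI, PRSS57 or the defensins. The genes that mature or fold the members had medians of 0.76 and 0.51. CTSC, cathepsin C, which activates the granule serine proteases by removing their propeptide, read 10436, 20084 and 14800 (log2 ratios 0.94 and 0.50), and CALR and CANX, chaperones of myeloperoxidase, had log2 ratios of 0.69 and 0.12 at PMA 3 days. FURIN, a proprotein convertase, was the only member of these 6 past 2-fold, at PMA 8 days (2.41-fold higher).

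Inhibitors of the granule proteases went both ways, with 3 of 6 tested lower and 1 higher at PMA 3 days and 2 lower and 1 higher at PMA 8 days (medians -0.67 and -0.55). The shares of all genes were 10.7% lower and 10.4% higher, then 8.49% lower and 9.83% higher. SLPI, the secreted inhibitor of elastase and cathepsin G, went from 9605 to 758 and 752, 12.7-fold and 12.8-fold lower. SERPINB9 was at least 3.27-fold lower at PMA 3 days and 2.80-fold lower at PMA 8 days. A2M, the broad protease trap alpha-2-macroglobulin, went from 208 to 11359 and 13015, 54.7-fold and 62.7-fold higher. SERPINB1, the main inhibitor of granule serine proteases inside neutrophils, had log2 ratios of 0.00 and -0.36.

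Of 11 tested transcription factors known to regulate granule genes, 4 were lower and 1 higher at PMA 3 days, and 5 lower and 1 higher at PMA 8 days (medians -0.68 and -0.74). For all genes these shares were 10.7% and 10.4% at PMA 3 days, and 8.49% and 9.83% at PMA 8 days. MYB, a factor of dividing progenitors, went from 32633 to 696 and 1074 (46.9-fold and 30.4-fold lower). GFI1, a repressor that directs granulocyte development, went from 6206 to 113 and 349, at least 41.4-fold and then 17.8-fold lower, and was at least 2.33-fold higher at PMA 8 days than at PMA 3 days. IRF8, a factor of the monocyte lineage, was 13.9-fold and 10.6-fold lower, and CEBPA 6.51-fold and 3.62-fold lower. CEBPD was lower at PMA 8 days (2.24-fold). CEBPB, the C/EBP factor of macrophages, was 2.75-fold and 2.42-fold higher. CEBPE, the factor of specific granules, had log2 ratios of 0.11 and 0.26.

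Proteins of the later, specific and gelatinase granules were read in the same way. Of 17 listed, 11 were above the floor, and 4 were higher and 0 lower at PMA 3 days (median 0.62), and 3 higher and 1 lower at PMA 8 days (median 0.68). The other 7 at each time were not past 2-fold. All genes tested had shares of 10.4% higher and 10.7% lower, then 9.83% higher and 8.49% lower. The collagenase MMP8 went from 9.20 to 6957 and 7799, at least 46.4-fold higher, the gelatinase MMP9 from 1765 to 66826 and 72969 (37.9-fold and 41.3-fold), and the chitinase CHIT1 from 25.2 to 1197 and 1370, at least 7.99-fold. ORM1, an acute phase protein, was 2.14-fold higher at PMA 3 days, from an undifferentiated signal of 159, close to the floor. The cathelicidin gene CAMP was the lowest, at 747, 425 and 343, past 2-fold only at PMA 8 days. LTF, LCN2, CRISP3 and OLFM4, which define specific granules in neutrophils, were below the floor on all arrays. Of 4 eosinophil granule genes, only PRG2 was above the floor on any array, at PMA 8 days (370), and whether CLC, PRG3 and EPX differed could not be read.

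**Figure D4:**
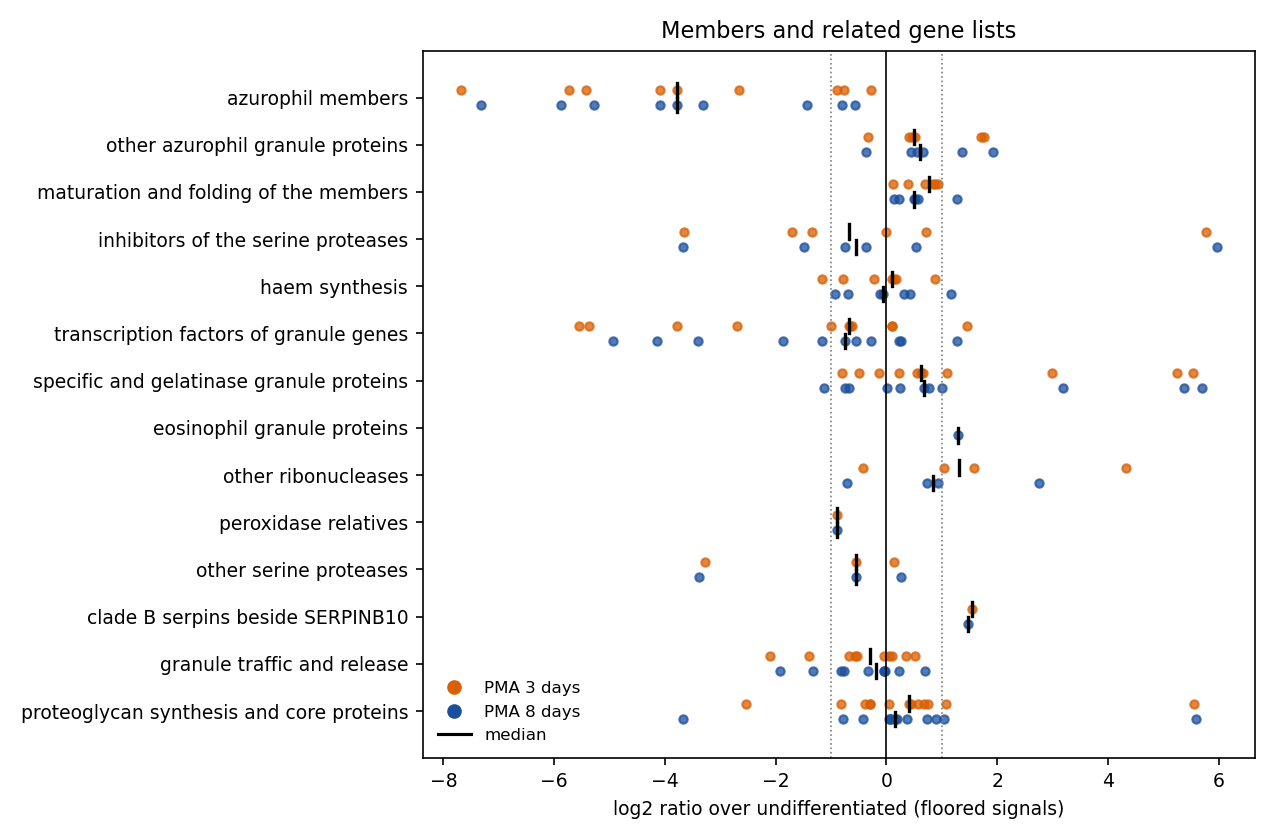
Log2 ratio over undifferentiated cells (horizontal axis, floored signals, so ratios with an array at the floor are bounds) of the granule genes and of related gene lists; each point is a gene that exceeded the floor on 1 or both arrays compared, orange for PMA 3 days and blue for PMA 8 days, black ticks are medians and dotted lines mark 2-fold. The median of the azurophil members is drawn at -3.78, a bound set by the floor, and those of the other lists are drawn between -0.90 and 1.55. Each of these ends is 1 gene and a bound, LPO (at most -0.90) and SERPINB7 (at least 1.55).

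The supply and traffic lists are set against the same shares of all genes (10.7% lower and 10.4% higher at PMA 3 days, 8.49% and 9.83% at PMA 8 days). Of 7 haem synthesis genes, which provide the cofactor of myeloperoxidase, PPOX was 2.25-fold lower at PMA 3 days and ALAS1 2.24-fold higher at PMA 8 days (medians 0.10 and -0.07). Of 10 genes of granule traffic and release 2 were lower at both times (medians -0.29 and -0.20). These were RAB27A, the small GTPase that docks granules at the membrane (4.27-fold and 3.78-fold), and LYST, the Chediak-Higashi syndrome gene (2.63-fold and 2.50-fold). Of 13 genes of proteoglycan synthesis and core proteins, 2 were higher and 1 lower at both times (medians 0.40 and 0.16). The chondroitin sulfotransferase CHST15 went from 64.6 to 7074 and 7276, at least 47.2-fold higher, and the chondroitin chain enzyme CSGALNACT2 was 2.11-fold and 2.06-fold higher. VCAN, the versican core protein, read 25970, 4456 and 2028, 5.83-fold and 12.8-fold lower. Of 7 other serine proteases (granzymes, chymase and CFD), 3 were above the floor, and CFD was the only one past 2-fold.

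The genes whose pair of ratios lay nearest to the centre of ELANE, AZU1, CTSG and PRTN3 were sought by distance. The centre was the pair of medians over ELANE, AZU1, CTSG and PRTN3, -5.58 at both times, and the candidates were 7348 other genes with an undifferentiated signal of at least 1000. AZU1 and CTSG lie close to this centre. ELANE (-7.69 and -7.33) and PRTN3 (at most -4.09 at both times) lie farther from it, so the genes found are not close to these. The nearest was GPR160, an orphan receptor (distance 0.12 log2 units), with signals of 31866, 622 and 698. It was followed by the chemokine receptor CCR2 (0.32), MYB (0.65), the progenitor membrane protein MS4A3 (0.67), the calcium channel subunit CACNA2D3 (0.74) and MS4A6A (1.17). These distances rest on 3 arrays, both ratios share the undifferentiated array, and PRTN3 (in the centre) and MS4A3 (below the floor at PMA 3 days) enter as bounds, so that the place of MS4A3 in this order is not settled.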

How the data were processed

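Arrays were 1-colour oligonucleotide arrays of 3 THP-1 cultures, 1 per condition. The deposited values are linear intensity (signal) values per probe set made by the authors with MAS5, per the submitters' processing notes. Every array's trimmed mean (2% off each tail) was 1000, as read from the values. The version and settings of MAS5 are not given in the sources used here. Detection calls were not used. The 62 control probe sets were set aside, and 41091 of the other 54613 were listed with 1 gene in the platform annotation. By Entrez ID 41037 matched the RefSeq table and 0 symbols changed. A gene was represented by its probe set with the highest mean over the arrays, and entered a comparison if above the floor of 149.8 on at least 1 of both arrays. Calls were made at 2-fold, with no test.

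On the PMA 3 days array the 27 poly-A control probe sets had a median log2 ratio of 0.31 over undifferentiated, and at PMA 8 days of 0.02. The ratio of 3' to 5' signal was between 1.36 and 1.49 for actin and between 1.10 and 1.16 for GAPDH. Between 48.5% and 51.4% of an array's probe sets exceeded the floor.

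The members, lists and alternatives were chosen with earlier results of these data known. Named were all members, up to 6 genes past 2-fold per list with its highest and lowest, up to 3 neighbours on either side, and the 6 nearest genes by ratio. The ratio and calling steps were tested on simulated data, with changes planted only in genes well above the floor. The simulated noise was smaller than the spread between probe sets. The floor and bound rule was tried on made-up genes, and the other steps were not tested in this way. Python 3.11.15, numpy 2.4.6, pandas 2.3.3, scipy 1.17.1, biopython 1.88 and matplotlib 3.10.9 were used.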

Additional observations from a re-analysis of the deposited data

How the results depend on the processing

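Alternatives were another floor (the 60th percentile or 50 signal units), another probe set per gene (the second-brightest, or the median over probe sets), another scaling (quantile normalization, the median of all genes at 0, or poly-A controls), a 3-fold threshold and no filter. At PMA 3 days the count of lower members was 6 or 7 of 9 under all of these but the second-brightest probe sets, which 2 tested members have: 1 of 2, LYZ, was lower at PMA 3 days, 1 of 2 at PMA 8 days and 1 of 2 at PMA 8 days over PMA 3 days. At PMA 8 days over undifferentiated it was otherwise 6 or 7 of 9. Under the floor of 50, 0 members were lower and 1 (MPO, log2 ratio at least 1.65, a bound) higher at PMA 8 days over PMA 3 days. Of 153 member ratios recomputed, 134 moved by less than the spread between probe sets, 19 by more, and 0 of those past 2-fold changed sign. The floor set the bounds: PRTN3 was at most -3.28 to -5.67, SERPINB10 at most -2.98 to -5.36, and MPO at most -0.08 to -2.47 at PMA 3 days, where it was past 2-fold with the floor of 50 only. LYZ was -1.97 (PMA 3 days) by its second probe set and -1.37 by the median of both. Scaling to poly-A controls made 15.7% of all genes lower and 8.22% higher at PMA 3 days, and moved the median of all genes from -0.12 to -0.31. The median of the members, which is a bound, moved from -3.78 to -3.86. No paired analysis was possible because each condition had 1 array. Signals near the floor limit ELANE, AZU1 and MPO after PMA. With the 60th percentile floor ELANE and AZU1 also became bounds, at most -6.94 and -5.61 at both times. Between the PMA cultures 4 members were then tested.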
